A study of Mus musculus with 8 samples.

Results

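Mesp1, Mesp2, Twist1, Cer1, Gsc, Lhx1, Tbx6, Mixl1 and Aplnr are 9 of the 21887 protein-coding genes on the assembled chromosomes of a RefSeq table for mm10. They were taken by symbol as genes of mesoderm formation and gastrulation. All 9 were found. Every open-chromatin region that met a gene body or the 50 kb on each side of it was collected from 4 deposited lists. This gave 21 regions in Ubc9-depleted cells, 26 in their controls, 25 in H1 triple-knockout cells and 25 in their wild-type controls, out of 48730, 46847, 58039 and 55489.

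The lists come from ATAC-seq of mouse embryonic stem cells, an assay in which a transposase cuts and tags accessible DNA. The Ubc9 pair is of the v6.5 line. Its depleted cells carry a doxycycline-induced (TET-OFF) depletion of Ubc9, the enzyme that conjugates SUMO to proteins, and had doxycycline for 72 hours; the others are labelled Ubc9-control only, and the labels give doxycycline for the depletion alone. An effect of the drug and one of the depletion cannot be told apart. In the H1 pair, cells lacking 3 genes for linker histones, the proteins that bind DNA between nucleosomes (genotype H1.2-/-H1.3-/-H1.4-/-), were set beside cells labelled H1-WT. Both come from an earlier publication, and no strain or clone is named. All 4 groups had been grown for 4 passages in 2i/LIF, a medium that holds stem cells in the naive state. There are 2 samples a group, but each list was made from both, so no spread between replicates could be had and no difference below carries a test. Whether the 2 samples were separate cultures is not said in the labels. The number of reads behind each list is unknown. In bulk cells, a region open in few cells and one weakly open in all cannot be told apart.

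Gastrulation is the step at which cells of the epiblast leave through the primitive streak and become mesoderm and definitive endoderm. Nodal, BMP and Wnt signals induce a first set of transcription factors there, secreted antagonists limit those signals, and receptors such as that for apelin guide the cells that have left. In naive stem cells such genes are generally silent or nearly so, and they are switched on within days of differentiation. Expression was not measured here.

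Some checks apply to all that follows. Of 10 stem cell genes, 8 had a region within 1000 bp of an annotated gene end in all 4 lists, with Pou5f1 and Esrrb in none. Of 10 fibroblast or feeder genes only Vim did so, and 5 had none in any list. Within the Ubc9 pair, Fbn1 (59.0) and S100a4 (65.1), 2 of the 10, had one in control cells only (4.02% of all genes). Fbn1 also had one in both H1 lists. Col1a1 had one in both Ubc9 lists and in neither H1 list, and Col1a2 the reverse. H1f2 and H1f3, which encode H1.2 and H1.3, had 0 bp of their bodies inside knockout regions, against 725 and 242 bp inside wild-type regions. H1f4, for H1.4, had 20 and 38 bp, against 782 bp in both Ubc9 lists. Regions are called shared when they overlap by at least 1 bp within a pair, and otherwise are said to be only in 1 list. The score deposited with each region is the authors' own, from 50.0 upwards, and is used to rank regions within a list. Coordinates are mm10, 1-based. Which bases are exonic was not examined.

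At the genes themselves the lists had little in common. Within the Ubc9 pair, a region lay within 1000 bp of a gene end in depleted cells only at Mesp1, Mesp2, Twist1 and Mixl1, 4 of the 9, where 5.29% of all genes did so. It lay there in Ubc9 control cells only at Cer1 and Aplnr, 2 of the 9 (4.02% of all genes). In the H1 pair, Gsc, Lhx1 and Tbx6, 3 of the 9, had a knockout-only region there (4.45% of all genes), and Twist1, 1 of the 9, a wild-type-only one (4.78% of all genes). None of the 9 had a gene-end region in all 4 lists, as 43.0% of all genes did, and none lacked one throughout, as 37.8% did. The genes were brought together with earlier results from these lists known, so these counts describe the genes and carry no weight as a surplus. None of them arose from a shared region that merely crossed the edge of the window in 1 list.

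**Figure D1:**
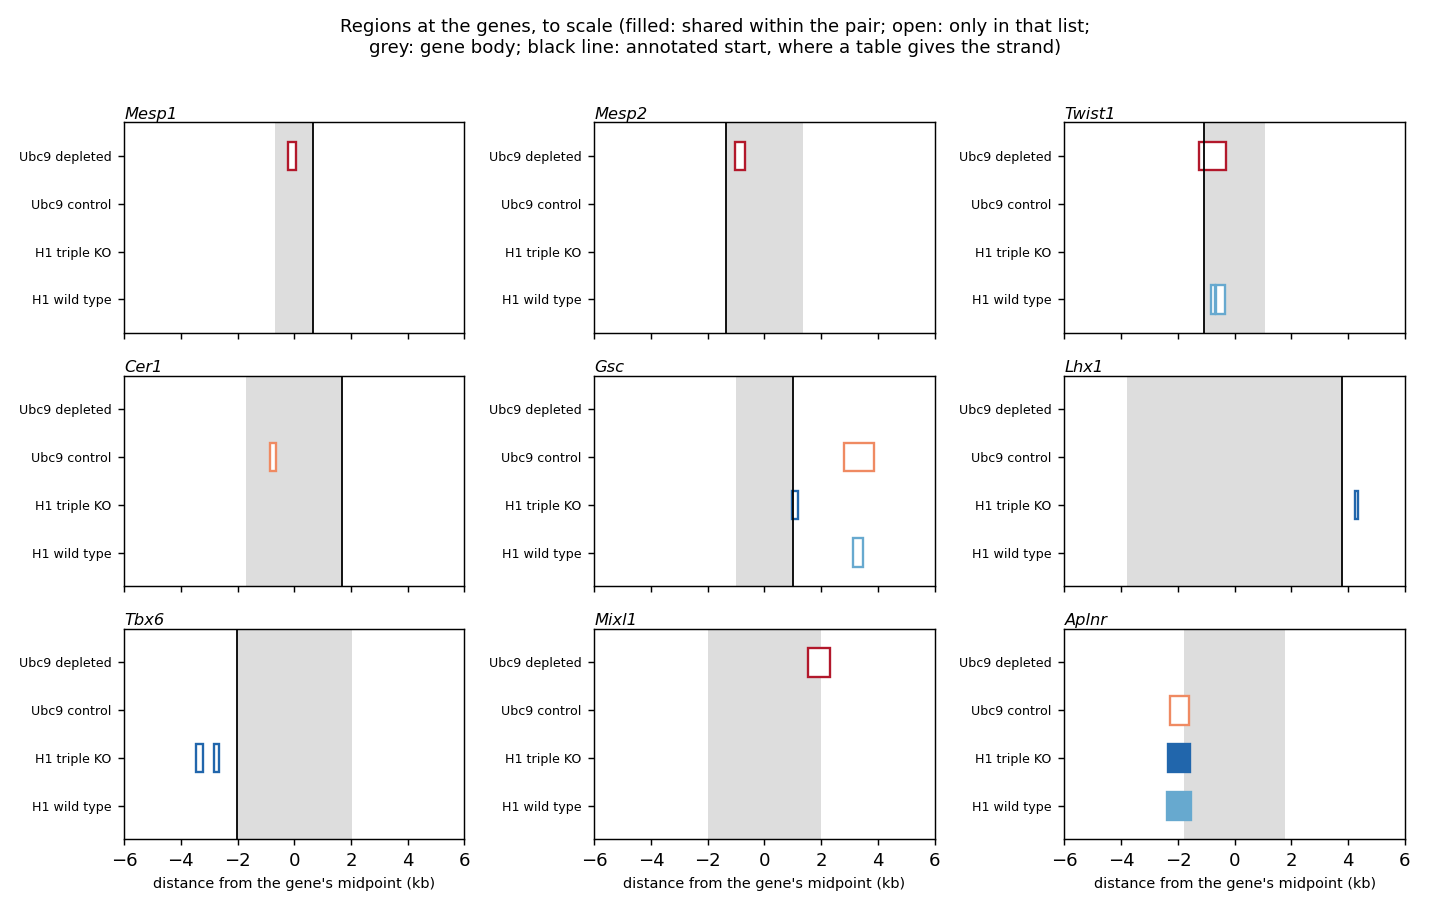
Regions of the 4 lists within 6 kb of the midpoint of each of the 9 genes, drawn to scale against the distance from it in kb along the chromosome. Filled boxes are shared within a pair, open boxes are only in that list, grey is the gene body, and the black line is the annotated start where a promoter table gave the strand. Filled boxes occur at Aplnr only, in both H1 lists, and no panel has boxes in all 4 lists.

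Most of the regions at these genes were weak ones of their lists. Leaving out Aplnr, the region with the highest rank was that of Mesp2, with 51.1% of depleted-cell regions scoring lower, and the one with the lowest rank the weaker region of Twist1 in wild-type cells, at 1.22%. Over all genes with a gene-end region in 1 list of a pair only, the median of the best score there was 111 in depleted cells (quartiles 83.1 and 157), 93.8 in Ubc9 control cells (77.1 and 125), 99.1 in knockout cells (74.6 and 133.7) and 95.3 in wild-type cells (72.3 and 132). Against these medians of best gene-end scores, the regions of Mesp2, Gsc and Aplnr (in Ubc9 control cells) lay above, and Lhx1 at 99.9 only just. Those of Mesp1, Twist1, Mixl1, Cer1 and Tbx6 lay below. Over all regions of the knockout list the median score was 139, and Gsc and Lhx1 lay below that.

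**Figure D2:**
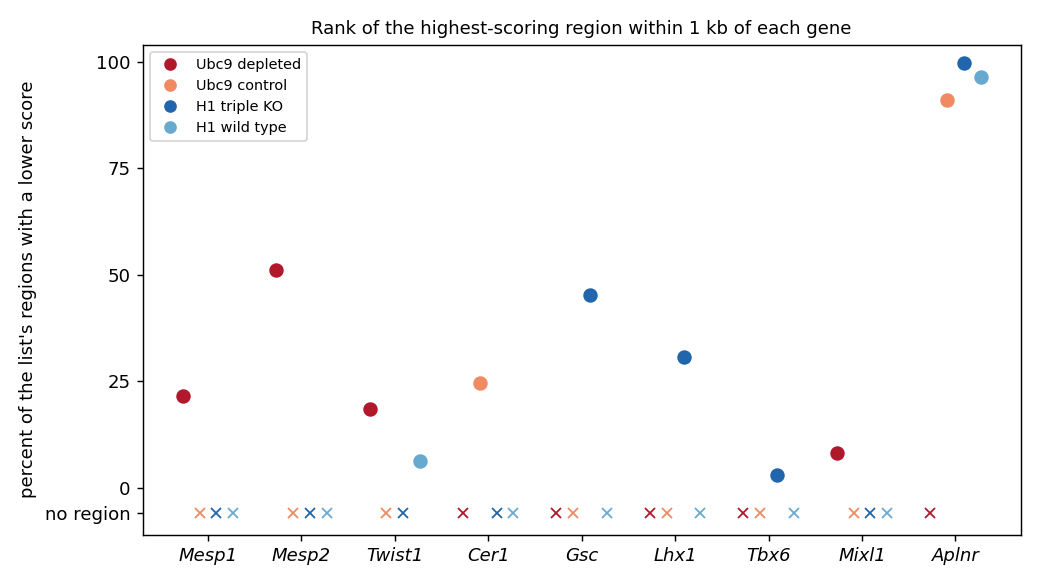
Rank of the highest-scoring region within 1 kb of each gene body, as the percent of the same list's regions that score lower (vertical axis), for the 4 lists (colours). Crosses mark lists with no region there. The 3 points of Aplnr sit at 90.9% and above, and the points of the other genes at 51.1% and below.

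Mesp1 and Mesp2 encode related basic helix-loop-helix factors. Mesp1 marks the earliest cardiac and cranial mesoderm, and Mesp2 sets the boundaries of the somites. They lie close together on chromosome 7, Mesp1 at chr7:79792241-79793590 on the minus strand and Mesp2 at chr7:79810727-79813431 on the plus strand. Depleted cells had a region of 283 bp inside Mesp1, chr7:79792690-79792972 (score 83.1), centred 759 bp past its start. They had a second of 333 bp inside Mesp2, chr7:79811052-79811384 (score 131), centred 491 bp past its start. Neither gene had a region within 1000 bp in any other list. The nearest control region was 11.7 kb from the Mesp1 region and 30.1 kb from the Mesp2 region, so no control region lay close by that could have missed an overlap by a few bases.

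Around both genes the lists differed again. Inside the neighbouring gene Wdr93, 11.3 kb from Mesp1, Ubc9 control and H1 wild-type cells had a region at the same place (chr7:79780661-79780969, scores 95.0 and 60.3). Depleted and knockout cells had none there. Knockout cells had instead a region of 112 bp (score 101) that stopped 0.6 kb short of the wild-type one. At the ends of Pex11a and Wdr93, 49.0 kb from Mesp1, all 4 lists had a region, with scores of 116, 119, 88.9 and 80.1 in the order depleted, control, knockout, wild type. At the end of Anpep, 34.7 kb from Mesp2, depleted, control and wild-type cells had one (129, 95.8 and 95.2) and knockout cells did not.

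The promoter windows of these 2 genes are shown because a depleted-only region lay within 1000 bp of each start. They are RefSeq sequences for GRCm38.p6, the assembly whose coordinates are those of mm10, and run from 250 bases before to 50 after the start. They are written 5′ to 3′ on the gene's strand. Capitals mark matches to any of 6 motifs searched on both strands: the T-box motif TCACACCT, the FOXH1 site AATNCACA, the E-box CANNTG, the octamer ATGCAAAT, the TCF/LEF site CTTTGAT and the SMAD site GTCTAGAC. The windows are chr7:79793541-79793840 (minus strand) for Mesp1 and chr7:79810477-79810776 (plus strand) for Mesp2. No match overlapped another.
Mesp1: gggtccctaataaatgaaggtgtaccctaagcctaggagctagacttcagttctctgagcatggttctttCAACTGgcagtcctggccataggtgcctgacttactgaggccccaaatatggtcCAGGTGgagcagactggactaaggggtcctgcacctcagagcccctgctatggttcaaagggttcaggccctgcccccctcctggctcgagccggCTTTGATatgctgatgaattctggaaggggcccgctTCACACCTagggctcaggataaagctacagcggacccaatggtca
Mesp2: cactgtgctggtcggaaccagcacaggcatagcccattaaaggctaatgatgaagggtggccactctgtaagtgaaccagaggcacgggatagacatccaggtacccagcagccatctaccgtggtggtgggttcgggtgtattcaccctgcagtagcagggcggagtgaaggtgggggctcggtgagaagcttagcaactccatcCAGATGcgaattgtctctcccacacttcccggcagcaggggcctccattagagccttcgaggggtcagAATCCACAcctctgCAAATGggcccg

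The Mesp1 window held the T-box motif, starting at base 6 of the gene, the TCF/LEF site and 2 E-boxes, all as written on the gene's own strand. Of all 32851 windows in the table, 1.28% held the T-box motif, 3.73% the TCF/LEF site and 72.3% an E-box. The Mesp2 window held the FOXH1 site, found in 3.6% of all windows, and 2 E-boxes. T-box proteins such as Brachyury, the Wnt effectors TCF and LEF, and FOXH1, which carries Nodal signals, are known regulators in the primitive streak. A match is a run of letters only, and both depleted-only regions lay past the end of these windows.

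Twist1 encodes a basic helix-loop-helix factor of cranial mesenchyme and neural crest, known for its part in the epithelial-to-mesenchymal transition. It lies at chr12:33957671-33959831 on the plus strand. Depleted cells had a region of 919 bp over its start, chr12:33957514-33958432 (score 79.2). H1 wild-type cells had 2 regions inside it, chr12:33957935-33958053 (119 bp, score 52.9) and chr12:33958111-33958401 (291 bp, score 60.8), centred 323 and 585 bp past the start. Ubc9 control and knockout cells had no region within 50 kb. The gene was therefore marked in the perturbed list of one pair and in the control list of the other. The nearest Ubc9 control region was 58.4 kb from the depleted one, and the nearest knockout region 108.9 kb from the wild-type ones.

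Twist1 stood alone in its surroundings. Its single site was the only one within 50 kb, and 1 coding gene, Ferd3l, shares that stretch. The median over all genes was 4 regions within 50 kb in depleted, Ubc9 control and wild-type cells and 5 in knockout cells. Only 6.70% of genes had fewer regions than Twist1 in depleted cells.

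Gsc encodes goosecoid, the homeobox repressor of the organizer and anterior primitive streak. It lies at chr12:104471209-104473236 on the minus strand. Knockout cells had a region of 223 bp across its start, chr12:104473202-104473424 (score 128, above 45.3% of the list), and no other list had one within 1000 bp. Ubc9 control and wild-type cells both had a region a little further upstream, chr12:104475015-104476075 (1061 bp, score 122) and chr12:104475347-104475715 (369 bp, score 127). The gap between the wild-type and the knockout region was 1.9 kb. Depleted and knockout cells lacked the upstream site.

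The starts of Twist1 and Gsc are the only ones of the 7 with a promoter window that a region covered. Their windows are printed with the covered bases in capitals. For Twist1 (chr12:33957421-33957720, plus strand) these are bases 94 to 300 of the window, inside the depleted-only region. For Gsc (chr12:104473187-104473486, minus strand) they are bases 63 to 285, inside the knockout-only region. Base 251 is the first of the gene.
Twist1: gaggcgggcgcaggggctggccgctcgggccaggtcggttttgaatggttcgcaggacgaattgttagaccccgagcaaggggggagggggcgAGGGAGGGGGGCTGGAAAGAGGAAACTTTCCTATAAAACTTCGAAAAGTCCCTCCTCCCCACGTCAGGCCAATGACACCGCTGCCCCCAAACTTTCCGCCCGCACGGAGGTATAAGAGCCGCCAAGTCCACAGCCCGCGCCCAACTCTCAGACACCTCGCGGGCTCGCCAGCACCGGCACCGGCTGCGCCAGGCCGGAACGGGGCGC
Gsc: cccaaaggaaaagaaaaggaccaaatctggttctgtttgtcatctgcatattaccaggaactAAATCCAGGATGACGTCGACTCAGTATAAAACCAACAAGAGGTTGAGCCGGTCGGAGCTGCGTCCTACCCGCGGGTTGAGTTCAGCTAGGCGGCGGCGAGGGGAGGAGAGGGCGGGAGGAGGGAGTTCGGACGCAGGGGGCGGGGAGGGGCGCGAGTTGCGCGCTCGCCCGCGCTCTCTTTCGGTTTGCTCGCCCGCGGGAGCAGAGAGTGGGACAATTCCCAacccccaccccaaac

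Both windows were rich in CpG, the dinucleotide that is dense in unmethylated promoter islands. The ratio of observed to expected CpG was 0.83 for Twist1 and 0.93 for Gsc, higher than in 81.3% and 89.8% of all windows, whose median was 0.38. The Twist1 window held none of the 6 motifs, and the Gsc window held 1 E-box, outside the covered bases.

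Gsc had 11 sites within 50 kb and no coding gene there besides itself, though the long non-coding RNA genes Gm10000 and Gm40562 overlap 5 of the sites. Of the 11, 3 were in all 4 lists, all on the downstream side. The highest was 17.5 kb from the gene, with a score of 502 in knockout, 469.7 in wild-type, 370.3 in Ubc9 control and 229 in depleted cells. The others, 37.6 and 44.0 kb away, scored 143 and 118 in depleted cells, 198 and 190.0 in their controls, 254 and 259.6 in knockout cells and 352 and 409 in wild-type cells. A further site 30.2 kb away was in Ubc9 control, knockout and wild-type cells (92.0, 106 and 149.7) but not in depleted cells.

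In the Ubc9 pair the Gsc neighbourhood held 3 depleted-cell regions, all shared, and 8 control regions, 5 of them only in controls. The control number was above that of 85.8% of genes in its list, and the depleted number above that of 29.6%. The 5 control-only regions scored between 73.5 and 122. In the H1 pair there were 7 knockout and 6 wild-type regions, with 3 and 2 unshared. One of these differences was a matter of a few bases: at 12.0 kb on the upstream side the knockout region (268 bp, score 97.9) and the wild-type region (65 bp, score 55.1) were 43 bp apart.

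Mixl1 encodes the paired-type homeobox factor that is switched on in the primitive streak and used as a marker of mesendoderm. It lies at chr1:180693043-180697034. Depleted cells had a region of 768 bp over its higher-coordinate end, chr1:180696570-180697337. Its score, 67.2, was above that of only 8.15% of the list. No other list had a region within 1000 bp, and the nearest control region was 28.5 kb away. Further off, wild-type cells alone had a region at 23.3 kb (213 bp, score 62.9), and both lists of the Ubc9 pair had one at the end of Acbd3, 28.7 kb away (116 in depleted and 146 in control cells). Knockout cells had no region within 50 kb.

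Lhx1 encodes a LIM homeobox factor of the organizer, node and later intermediate mesoderm. It lies at chr11:84517975-84525534 on the minus strand. Knockout cells had a region of 107 bp upstream of its start, chr11:84525993-84526099 (score 99.9), 459 bp before it and inside the annotated Lhx1os, a long non-coding RNA gene. Other lists had none there, and the nearest wild-type region was 12.2 kb away. That region belongs to a strong site at the end of Aatf, the neighbouring gene, 3.9 kb from Lhx1 on its downstream side. All 4 lists had it, with scores of 539 in depleted, 329 in Ubc9 control, 241 in knockout and 305 in wild-type cells. Nothing else lay within 50 kb.

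Tbx6 encodes the T-box factor that commits cells to paraxial mesoderm rather than neural fate. It lies at chr7:126781483-126785548 on the plus strand. Knockout cells had a region of 175 bp in the short gap between Ypel3 and Tbx6, chr7:126780701-126780875, 608 bp before the Tbx6 start. Its score of 58.0 was above that of 2.99% of the list. A second knockout-only region, chr7:126780048-126780289 (242 bp, score 69.6), lay inside Ypel3, 1.2 kb from Tbx6. The first region is within 1000 bp of an end of Ypel3 as well, so it cannot be assigned to either gene. The second is within 1000 bp of an end of Ypel3 but not of Tbx6. No other list had a region between the Gdpd3 and Ypel3 site, 4.35 kb before Tbx6, and the Ppp4c site, 6.5 kb past it.

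The windows of Lhx1 (chr11:84525485-84525784, minus strand) and Tbx6 (chr7:126781233-126781532, plus strand) are given because a knockout-only region lay within 1000 bp upstream of each start. Neither held a match to the 6 motifs, so no base is in capitals.
Lhx1: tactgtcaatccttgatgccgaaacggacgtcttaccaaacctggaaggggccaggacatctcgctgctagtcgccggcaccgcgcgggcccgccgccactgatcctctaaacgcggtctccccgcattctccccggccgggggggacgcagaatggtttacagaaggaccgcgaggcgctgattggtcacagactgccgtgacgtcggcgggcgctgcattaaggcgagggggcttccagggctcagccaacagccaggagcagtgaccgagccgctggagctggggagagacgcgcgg
Tbx6: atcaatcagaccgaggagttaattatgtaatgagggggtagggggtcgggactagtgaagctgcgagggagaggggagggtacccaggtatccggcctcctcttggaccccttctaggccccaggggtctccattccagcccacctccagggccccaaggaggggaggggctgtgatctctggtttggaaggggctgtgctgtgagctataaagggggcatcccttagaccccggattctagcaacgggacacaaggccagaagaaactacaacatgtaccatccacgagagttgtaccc

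These starts differ in composition. Lhx1, with 31 CpG and a ratio of 0.96, stood above 91.7% of windows, and Tbx6, with 7 CpG and a ratio of 0.29, above 40.2%. Mesp1 (0.17, above 24.7%), Mesp2 (0.40, above 51.6%) and Cer1 (0.31, above 42.7%) resembled Tbx6 more than Lhx1. So CpG-rich and CpG-poor starts occurred both among genes with a depleted-only and among genes with a knockout-only region.

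Tbx6 lay in the most crowded stretch of the set, with 7 coding neighbours and 11 sites. Of its sites, 6 were in all 4 lists, 5 of them at the ends of Mapk3, Gdpd3 with Ypel3, Ppp4c, Aldoa and 4930451I11Rik. The highest was at Aldoa, 13.3 kb away, with scores of 543 in depleted, 432 in Ubc9 control, 429 in knockout and 467 in wild-type cells. Its H1 knockout copy was deposited in 2 pieces with 1 score. At 4930451I11Rik, 46.5 kb away, the knockout region (236 bp) ended 3 bp before the first wild-type piece, so that both count as unshared although the Ubc9 lists span the gap. At Ppp4c a knockout piece of 1 bp counts as unshared beside a shared piece of 395 bp.

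Differences around Tbx6 were otherwise few. A depleted-only region lay 39.6 kb upstream (371 bp, score 168, above 63.8% of the list), the highest-scoring depleted-only region near any of the 9 genes. A site 26.3 kb upstream was in Ubc9 control (81.3) and wild-type cells (62.7) only. A Ubc9 control region at 36.4 kb (74.0) had no partner in any list.

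Cer1 encodes cerberus-like 1, a secreted antagonist of Nodal and BMP made by the anterior visceral endoderm. It lies at chr4:82881751-82885151 on the minus strand. Ubc9 control cells had a region of 217 bp inside the gene, chr4:82882582-82882798 (score 87.7, above 24.5% of the list), and the other 3 lists had none. It was centred 2461 bp past the start and reached the gene-end window only from the far end. The nearest depleted region was 22.7 kb away, at the end of Zdhhc21, where all 4 lists had a region (255 in depleted, 318 in Ubc9 control, 227 in knockout and 164 in wild-type cells). Cer1 had no region near its start in any list.

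Aplnr encodes the G-protein-coupled receptor for the peptides apelin and Elabela, which acts in the migration of mesodermal cells during gastrulation and in the heart. It lies at chr2:85136360-85139923. Unlike the other 8 genes it had strong regions, over its lower-coordinate end. They were chr2:85135856-85136521 in Ubc9 control (666 bp, score 361), chr2:85135807-85136557 in knockout (751 bp, 977) and chr2:85135742-85136597 in wild-type cells (856 bp, 556). Of the regions in those lists 90.9%, 99.6% and 96.5% scored lower. Depleted cells had no region there, and their nearest was 11.6 kb away. The same held 45.5 kb from the gene, where control, knockout and wild-type cells had a region (91.0, 141 and 129) and depleted cells had none.

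Another Aplnr site was in all 4 lists. It lay 12.2 kb away on the lower-coordinate side, away from other gene ends, with scores of 99.9 in depleted, 176 in Ubc9 control, 241 in knockout and 224 in wild-type cells. Depleted cells alone had a region 27.6 kb off on that side (406 bp, score 129.8). In the depleted list, then, the neighbourhood kept 1 of the 3 sites found in the 3 other lists and held 1 of its own.

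**Figure D3:**
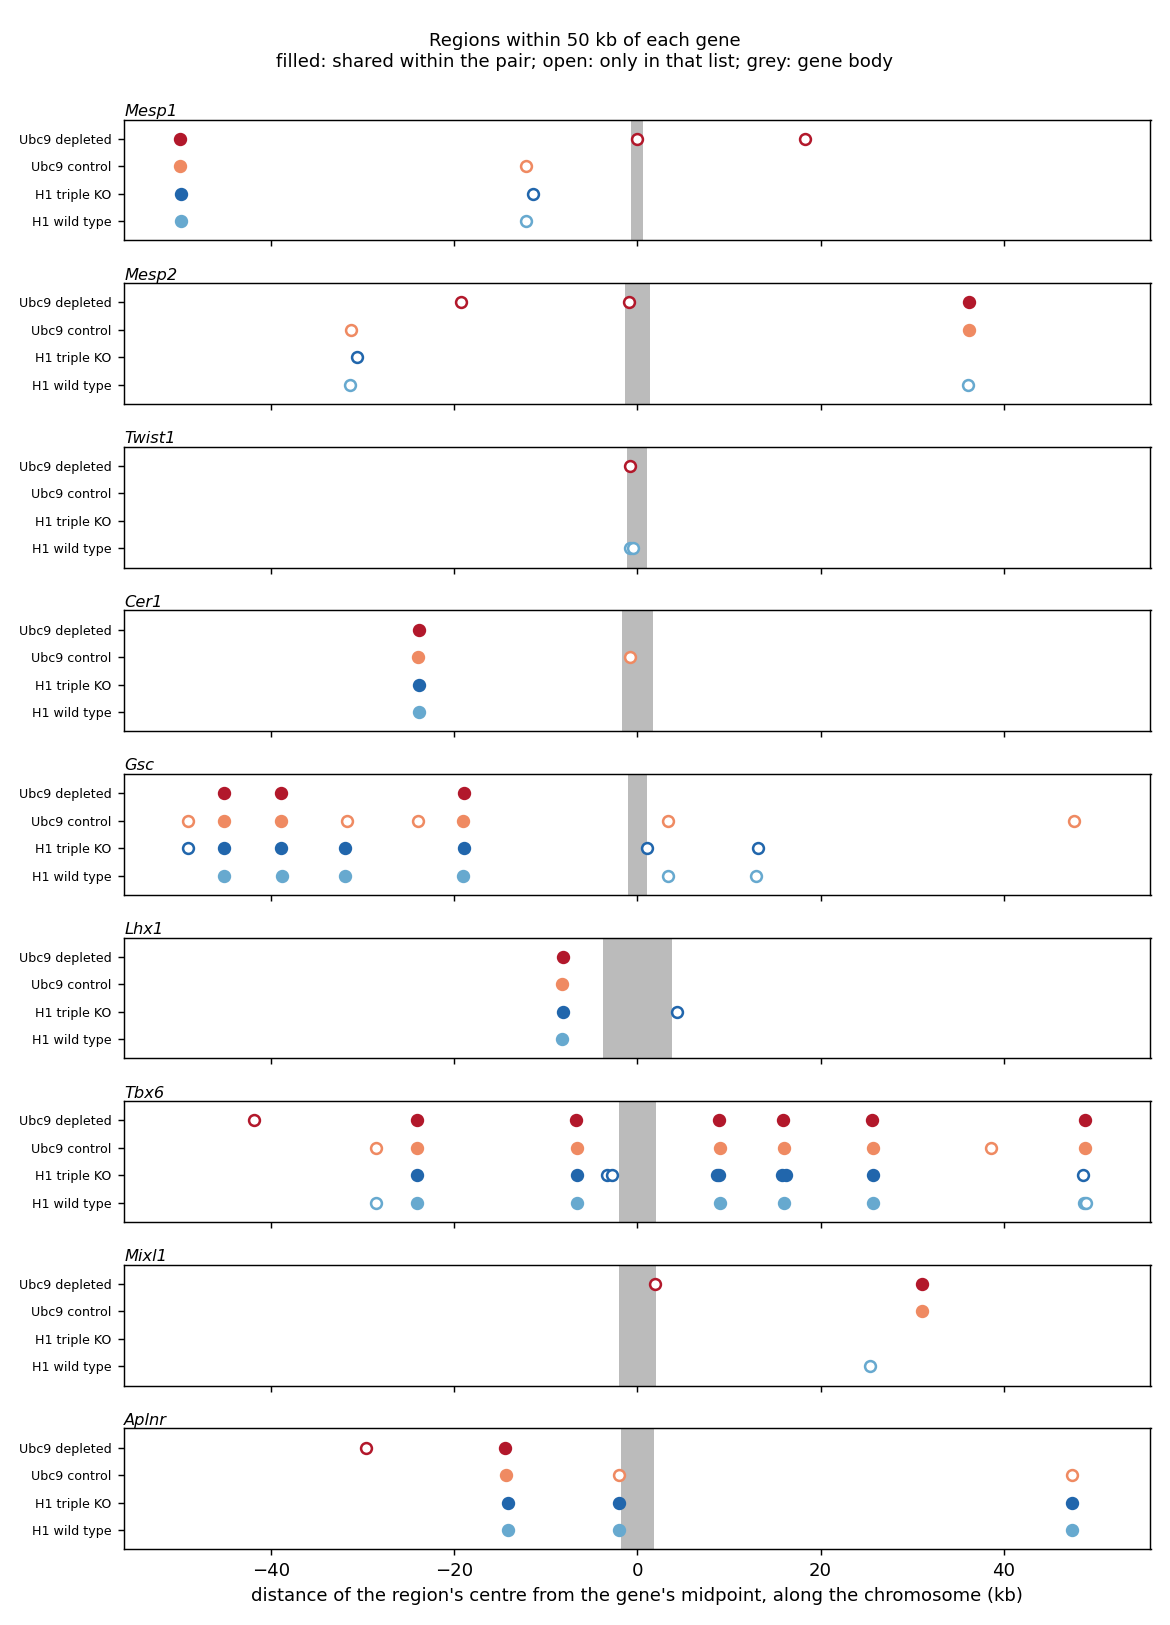
Centres of all regions within 50 kb of each gene, against the distance from the gene's midpoint in kb along the chromosome, 1 row per list. Filled circles are shared within the pair, open circles are only in that list, and grey is the gene body. The 13 sites common to all lists, nearly all of them columns of filled circles, lie off the genes, while the circles on or within 1 kb of the gene bodies are open except in the H1 lists at Aplnr. The choice of the genes bears on this contrast.

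Over all 9 neighbourhoods, with each region counted once, the share of unshared regions is set beside that of the whole list, and no conclusion is drawn. It was 6 of 21 in depleted cells (28.6%, exact 95% Clopper-Pearson interval 11.3 to 52.2) where 45.6% of the whole list was unshared. It was 11 of 26 in Ubc9 control cells (42.3%, 23.4 to 63.1) against 43.3%. In the H1 pair it was 9 of 25 in knockout cells (36%, 18 to 57.5) against 31.4%, and 10 of 25 in wild-type cells (40%, 21.1 to 61.3) against 28.8%. In every list the whole-list share lay inside the interval, but the intervals cover counting error only and are no test. The unshared regions include those at the chosen genes. The depleted-only ones include the 4 at Mesp1, Mesp2, Twist1 and Mixl1, and the control-only ones those at Cer1 and Aplnr. The knockout-only ones include those at Gsc, Lhx1 and Tbx6. Near Tbx6 they also include a piece of 1 bp and a region 3 bp short of a wild-type one. The wild-type-only ones include 2 regions side by side at Twist1 and 2 pieces of 1 peak near Tbx6.

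Near the genes, shared regions had a higher median score than unshared ones in every list. No such medians over the whole lists stand beside these. Each list starts at a score of about 50, so a weak region can lack a called partner for that reason alone, which was not tested. The unshared regions also include those at the chosen genes, so the order carries no weight. The median score near the genes was 143 for shared and 106 for unshared regions in depleted cells, 190.0 and 91.0 in Ubc9 control cells, 241 and 99.9 in knockout cells and 181 and 62.8 in wild-type cells. The highest score of an unshared region, 361, was that of Aplnr in Ubc9 control cells.

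Sites, chains of overlapping regions over the 4 lists, show where the sharing was. Of 40 sites near the 9 genes, 13 were in all 4 lists, 4 in 3, 6 in 2 and 17 in 1. Over all 94652 sites the shares were 21.8%, 15.0%, 17.6% and 45.6%. Within 1000 bp of the 9 gene bodies, 0 of 9 sites were in all 4 lists and 7 were in 1. In the flanks, 8 of the 11 sites at the ends of other coding genes were in all 4 lists, and of the 20 sites away from them 5 were in all 4 and 9 in 1. The genes were chosen with earlier results known, so the counts within 1000 bp of their bodies carry no weight. The 8 of 11 has no share over all sites at coding gene ends beside it.

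**Figure D4:**
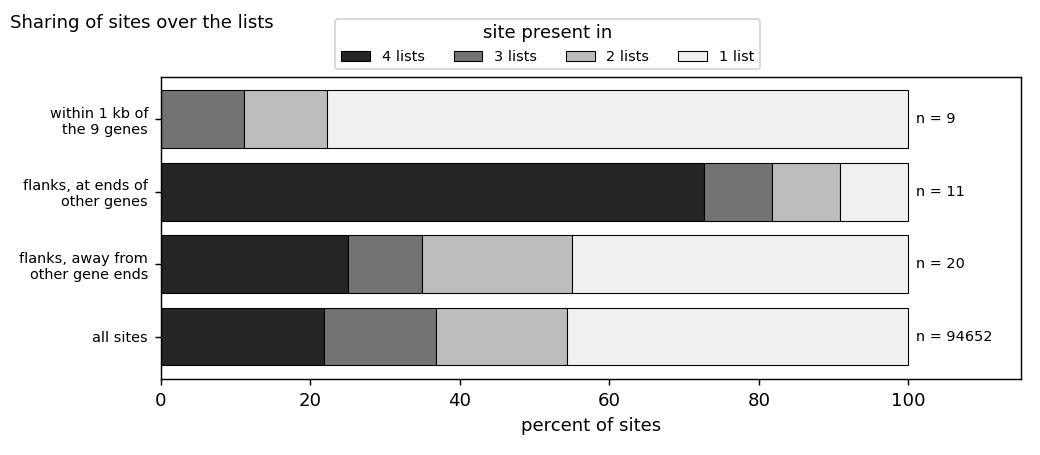
Percent of sites found in 4, 3, 2 or 1 of the lists (shades), for sites within 1 kb of the 9 genes, sites in their flanks at ends of other coding genes, flank sites elsewhere, and all sites. The bar for the 9 genes has no part in the shade for 4 lists, and 8 of 11 sites at ends of neighbouring genes are in all 4. The genes were chosen with earlier results known, so the contrast of these bars carries no weight.

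By combination of lists, 5 sites near the genes were in depleted cells alone, at Mesp1, Mesp2 and Mixl1 and in the flanks of Tbx6 and Aplnr, and 19.7% of all sites were of this kind. Knockout cells alone held 6 (11.9% of all sites), Ubc9 control cells alone 4 (5.19%) and wild-type cells alone 2 (8.88%). The 3 sites missing from depleted cells only were those of Aplnr, at its end and at 45.5 kb, and the Gsc site at 30.2 kb, a kind that made up 9.88% of all sites. Sites found in both control lists but in neither perturbed list numbered 3, near Mesp1, Gsc and Tbx6 (3.68% of all sites). No site was in both perturbed lists alone, a kind with 1.44% of all sites.

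The presence of gene-end regions over the 4 lists places each gene among all others. Mesp1, Mesp2 and Mixl1 had the pattern of 685 genes (3.13%), a region in depleted cells alone. Gsc, Lhx1 and Tbx6 shared theirs, knockout cells alone, with 291 genes in all (1.33%). Aplnr had that of 441 genes (2.01%), all lists but the depleted one. Cer1 had that of 182 (0.832%) and Twist1 that of 150 (0.685%).

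A list of 46 other genes of mesoderm formation and gastrulation, all found in the table, was looked at in the same way. Of these, 15 had a gene-end region in all 4 lists (32.6%, against 43.0% of all genes) and 17 in none (37.0%, against 37.8%). T (Brachyury), the founding T-box gene of the streak, Msgn1 and Wnt3a were among the 17, as were Lefty1 and Lefty2, Nodal antagonists. Wnt3, which starts the streak (207, 135, 396 and 339 in depleted, Ubc9 control, knockout and wild-type cells), Snai1, a repressor of E-cadherin (329, 185, 252 and 179.6), and Hhex, of anterior endoderm (469, 153, 189.7 and 197), were among the 15. So were Isl1 (309, 470, 444 and 406) and Cdx1 (227, 348, 128 and 399). Unlike Wnt3, Snai1 and Hhex, both scored lower in depleted than in Ubc9 control cells. Scores rank regions within a list only, so neither order is read as a gain or loss.

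Within the Ubc9 pair, 3 of the 46 had a gene-end region in depleted cells only (6.52%, against 5.29% of all genes). They were Dll3, a Notch ligand of somite formation (142), Ripply2, which represses the Mesp2 and Tbx6 programme in the somite (86.1), and Pcsk6, a protease that activates Nodal (157). In Ubc9 control cells only, 5 had one (10.9%, against 4.02%): Bmp4 (92.5), Gata6 (129), Dkk1, a Wnt antagonist (98.5), and Tdgf1 (109.8) and Cdx2 (91.3), whose regions were shared and crossed the window edge. In the H1 pair, Foxa2 (105) had one in knockout cells only, 1 of 46 (2.17%, against 4.45% of all genes). Eomes (75.8), Cdx2 (79.0) and Pcsk6 (93.1) had one in wild-type cells only, 3 of 46 (6.52%, against 4.78%). These calls hold within a pair. Ripply2, Gata6, Dkk1 and Tdgf1 also had a gene-end region in both H1 lists, and Foxa2 and Eomes in both Ubc9 lists. Nodal itself had a region in both H1 lists (62.8 and 71.6) and in neither Ubc9 list, while Fgf8, Hand2 and Sox17 had one in both Ubc9 lists and in neither H1 list. Like Twist1, Pcsk6 was marked in depleted and in wild-type cells.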

How the data were processed

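ATAC-seq of 8 samples in 4 groups of 2 is represented by 4 region lists, each deposited by the authors from both replicates of a group. The submitters' processing notes name the build mm10 and, as tools, MACS 1.4.2-1, Picard, CASAVA 1.8.2 and Bowtie2. Their settings, any shift of reads for the transposase and how replicates were combined are not given in the sources used here. The score of each region is as the authors deposited it. The H1 lists carry peak names, and 1 peak can be deposited in several pieces (58039 knockout regions with 56564 names), so widths and numbers were compared within a pair only.

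Overlaps (at least 1 bp) and counts were computed in Python 3.11.15, intervals with SciPy 1.17.1. Genes came from a RefSeq table for GRCm38.p6, which has no strand. Strand and promoter windows, 250 bases before to 50 after the start, came from a RefSeq promoter table that matched 7 of the 9 genes. The gene-end window was 1000 bp on each side of either annotated end. The overlap calls were tested on simulated data against a direct comparison, with 0 of 4500 disagreeing.

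The genes and lists were chosen with earlier results of these data known. All 9 genes are named, with every region within 1000 bp of a gene and, beyond, those that rank highest or differ within a list. Pattern counts over all genes replace a search for similar genes. Alternatives changed the flank, the overlap, the score minimum, the list size and the window. Joining pieces of 1 peak was added after seeing the data.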

Additional observations from a re-analysis of the deposited data

Results flagged for a closer look

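At 2 sites near these genes the direction of the difference was opposite in the Ubc9 pair and in the H1 pair, which is why they are listed here. The difference between the pairs was not tested, since each group has 1 list. The first is at Twist1. Depleted cells had a region over its start (score 79.2, above 18.4% of the list), and their controls had none. Wild-type cells had regions inside the gene, past the start (highest score 60.8, above 6.24% of the list), and knockout cells had none. The second lies 47.9 kb from Gsc on its downstream side, chr12:104423090-104423343, with a region in Ubc9 control cells (94.9) but not in depleted cells, and in knockout cells (79.7) but not in wild-type cells. Of all 94652 sites, 0.954% had the combination of the first and 2.66% that of the second.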

How the results depend on the processing

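No paired analysis was possible because each list pools both replicates of its group, and for the same reason no replicate could be left out. The unshared regions near the genes (6 in depleted, 11 in Ubc9 control, 9 in knockout and 10 in wild-type cells) and the genes with a gene-end region in 1 list of a pair only (4, 2, 3 and 1) were recounted. The score minimum of 100 was applied to the list counted, while its partner list kept all its regions. The regions then became 3, 2, 4 and 3 and the genes 1 (Mesp2), 1 (Aplnr), 1 (Gsc) and 0. So the calls at Mesp1, Twist1, Mixl1, Cer1, Lhx1 and Tbx6 rest on scores under 100. With 10 kb flanks the regions in depleted, control, knockout and wild-type cells became 4, 3, 5 and 3. With 100 kb flanks they became 9, 22, 19 and 17. The order within the Ubc9 pair thus turned round with 10 kb flanks, from 6 depleted-only against 11 control-only to 4 against 3. Those 4 are the regions at Mesp1, Mesp2, Twist1 and Mixl1. The genes were chosen with earlier results known, so the turn carries no weight. A shorter or longer flank takes in fewer or more regions by its length alone. No share over all regions or genes stands beside the recounts at these flanks or at the score minimum. With a window of 500 bp the control-only genes became 1, Cer1 being lost. The other counts changed less, but not always with the same genes. With a window of 2500 bp Gsc was no longer knockout-only and became control-only in the Ubc9 pair. With regions up to 500 bp apart counted as shared, the unshared regions in the H1 pair became 6 and 7, and joining pieces of 1 peak made them 8 and 9. Tbx6 was lost from the knockout-only genes with a window of 500 bp and with equal numbers of top-scoring regions. Depth, which limits how many weak regions a list can hold, is unknown.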
